A study of Mus musculus with 18 samples.

Results

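The step described here is the last in the maturation of mouse splenic natural killer (NK) cells by the surface proteins CD27 and CD11b: stage IV cells, which carry CD11b without CD27, set against stage III cells, which carry both. The comparison takes the 3 wild-type (WT) libraries of stage IV and the 3 WT libraries of stage III, 6 of the 18 RNA sequencing libraries in the series, and covers every gene with enough reads to be tested. The other libraries are 3 of WT stage II, where cells carry CD27 without CD11b, and 3 of each stage from mice bred for deletion of Eomes in NK cells (KO), in which Eomes RNA was lower but present in stages III and IV. According to the labels the KO mice carried an inducible Cre (Ncr1-iCreERT2 KI/WT), a Cre-dependent YFP reporter in Rosa26 and Eomesfl/fl alleles, with Cre expressed from Ncr1, a gene active in NK cells and related innate lymphocytes. All mice were C57BL/6 and 8 to 12 weeks old, a tamoxifen course of 3 days is listed for every sample, and the work was spread over 3 experiments with pooled spleens. The WT label names no alleles, so it is not stated whether these mice carried Cre or were given the drug, nor how many spleens went into a pool. Which replicate number belongs to which experiment is not stated either, so p-values measure the spread between these libraries, part of which may be technical.

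NK cells are innate lymphocytes that kill infected or transformed cells with perforin and granzymes and release interferon-gamma. In the mouse spleen they pass from cells with CD27 that divide and home to lymphoid tissue to cells with CD11b that circulate in blood, carry KLRG1 and hold larger stores of granule proteins. The transcription factors TCF-1 and MYB are associated with early or proliferating lymphocytes, and T-bet and ZEB2 with the terminal stage.

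Total counts were 23609401, 24641981 and 20428503 reads in the stage IV libraries and 21681639, 28365837 and 27011187 in the stage III libraries, in the order of replicates 1, 2 and 3, and this order is kept for all values below. Between 17906 and 21556 genes had at least 1 read in these 6 libraries, with the highest number in stage III replicate 1. Replicate 1 stood apart from replicates 2 and 3 in both stages. Xist, which is transcribed from the inactive X chromosome, had 43.2 CPM (the authors' unit of reads scaled to the library total) in stage IV replicate 1 and 35.5 CPM in stage III replicate 1, against at most 0.636 CPM in the other 4 libraries. The summed level of 28 immediate early and stress genes was 6386 and 6540 CPM in the replicate 1 libraries of stages IV and III, against 14857 to 18809 CPM in the others.

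Of 13062 genes tested, 1424 were called changed at an adjusted p under 0.05, which is 10.9% of the genes. Of these, 487 (3.73%) were higher and 937 (7.17%) lower in stage IV. A change of at least 2-fold was found for 463 called genes, of which 104 were higher and 359 lower in stage IV, so that the larger changes were mostly losses. The median log2 fold change over all tested genes was 0.0080, and unless another scale is named a fold change below is a fitted log2 value, stage IV over stage III, with its standard error (SE). The 3 libraries of one stage lay wholly above or below the 3 of the other in 4230 genes, 32.4% of those tested. With the replicate number as a block, a pairing that the labels do not state, 3179 genes were called (1375 higher and 1804 lower). Within replicates 2 and 3 alone the count was 1527 (547 higher and 980 lower), and replicate 1 alone gives 1 library against 1, too few to test. Without any single one of the 9 WT libraries it ran from 695 to 1754, and it moved by more than 1.5 times without stage III replicate 1 (912), 2 (695) or 3 (858) and without stage IV replicate 1 (898), 2 (769) or 3 (860), each of which leaves 2 libraries in an arm. A fit to all 18 libraries called 449.

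**Figure D1:**
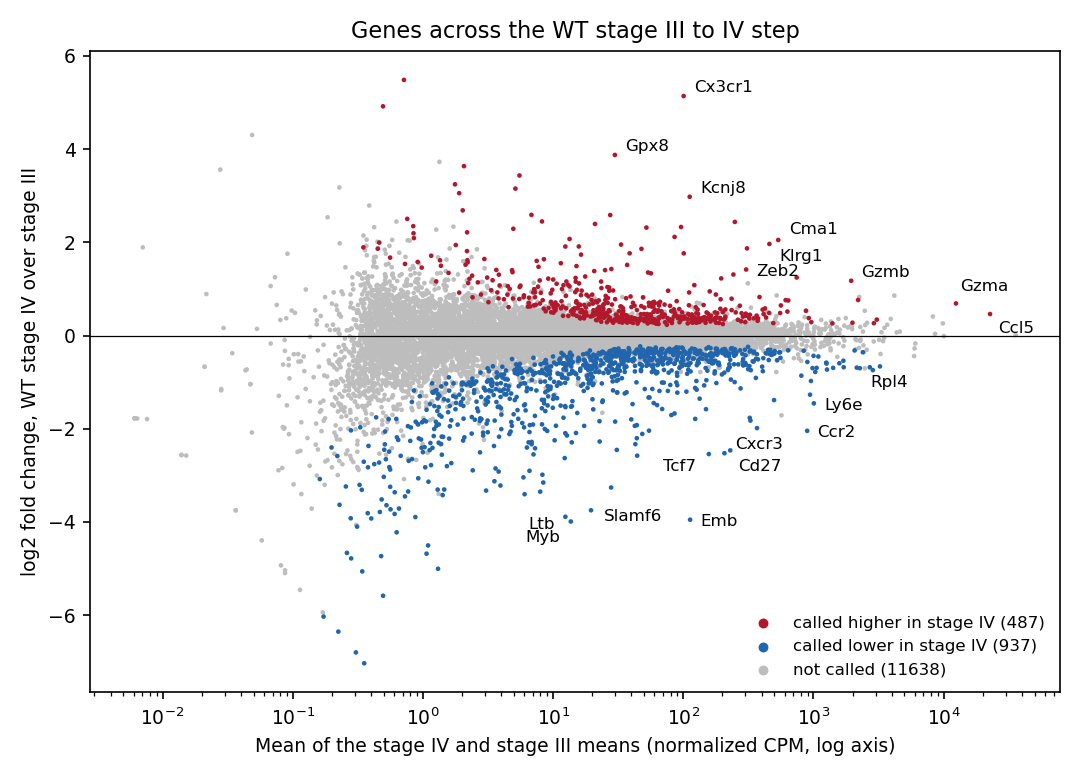
Log2 fold change of WT stage IV over stage III for the 13062 tested genes, against the mean of the 2 stage means in normalized CPM on a log axis. Red points are the 487 genes called higher in stage IV, blue points the 937 called lower and grey points the genes not called. Most large changes at moderate levels are losses, while Cx3cr1 stands alone among the rises at this level.

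The sorting markers were read first. Cd27 RNA (6, 125232622-125237010 on GRCm38) was 50.9, 75.5 and 85.0 CPM in stage IV, on the TMM-normalized scale used for genes below, against 394, 400 and 372 in stage III, a change of -2.46 ± 0.16 (SE, n = 3 each, adjusted p = 1.69e-05). The groups did not overlap, and since absence of CD27 protein defined the sort, this value checks the labels and is not a finding. Itgam, which encodes CD11b, was 828, 709 and 520 in stage IV and 464, 447 and 403 in stage III (0.65 ± 0.16, adjusted p = 0.0313). Its call ended in 6 of the 9 fits that each left out 1 library (stage II replicate 2, stage III replicates 1, 2 and 3, and stage IV replicates 1 and 2), where the log2 change was between 0.49 and 0.81, and in the fit to all 18 libraries. Eomes, the gene deleted in the KO mice, had 247, 247 and 286 CPM in WT stage IV and 284, 259 and 287 in WT stage III, with overlapping groups (-0.09 ± 0.10, adjusted p = 0.632).

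Cx3cr1, the receptor for the chemokine CX3CL1 on patrolling and effector lymphocytes, had the highest fold change among the called genes with at least 5 CPM in the higher stage and no overlap between the stages. These conditions chose the 15 highest and 15 lowest genes described here, so the lack of overlap is no finding about them. It lies on chromosome 9 (119901616-120068283, GRCm38) and was at 336, 156 and 94.5 CPM in stage IV against 10.2, 3.25 and 3.52 CPM in stage III. The lowest stage IV library was well above the highest stage III library, with a difference of 5.14 ± 0.61 (SE, n = 3 each, adjusted p = 0.000649), a 35.3-fold rise. In both stages replicate 1 was the highest library.

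Gpx8, a glutathione peroxidase family member of the endoplasmic reticulum, was at 78.1, 52.3 and 37.0 CPM in stage IV and 5.2, 2.85 and 3.45 CPM in stage III (3.88 ± 0.62, adjusted p = 0.00346). Kcnj8, a pore subunit of ATP-sensitive potassium channels, was at 202, 214 and 180 CPM in stage IV and 14.1, 27.8 and 33.5 in stage III (2.98 ± 0.29, adjusted p = 0.000178). For both genes the groups were far apart, which the choice of genes by large change and no overlap favoured. Klrg1, an inhibitory receptor for cadherins and a standard marker of terminal NK cells, was at 935, 763 and 495 CPM in stage IV and 219, 186 and 155 in stage III (1.97 ± 0.22, adjusted p = 0.000452). Entpd1, which encodes the ectonucleotidase CD39, rose by 2.33 ± 0.29 and Ly6c2, a Ly6 surface antigen, by 2.44 ± 0.33. Ptgs1, the constitutive cyclooxygenase, was 5.26-fold higher, with 32.5, 39.4 and 33.9 CPM in stage IV against 6.61, 7.12 and 6.36 CPM in stage III.

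Several proteases and less studied genes completed the 15 strongest rises. Cma1, a chymase best known from mast cells, was at 1037, 803 and 752 CPM in stage IV and 209, 212 and 204 CPM in stage III (2.05 ± 0.12, adjusted p = 8.5e-06). Cym, the gene of the aspartic protease chymosin, was at 106, 137 and 175 CPM in stage IV against 24.8, 32.0 and 39.4 in stage III. The chemokine gene Ccl9 was low in both stages, with 13.1, 8.17 and 6.4 CPM in stage IV and 1.09, 1.24 and 0.766 CPM in stage III (3.15 ± 0.40), and its call ended in the fit to all 18 libraries. Gprc5a, an orphan receptor (3.44 ± 0.41), Ube2l6, the conjugating enzyme for the ubiquitin-like protein ISG15 (2.45 ± 0.21), and Cdc20b, a relative of the mitotic activator Cdc20 (2.32 ± 0.12), were also among them. Sept5, a septin, rose by 2.07 ± 0.21, but 27.9% of its exon bases lie in Gp1bb on the same strand, so reads of these genes may be split in either direction. Parm1, a mucin-like membrane protein, rose by 2.59 ± 0.56, and its call ended without stage III replicate 2 or 3 or stage IV replicate 1 or 2, where the value lay between 2.26 and 3.31.

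The lowest fold change by the same rule belonged to Myb, a transcription factor of proliferating progenitors (10, 21124936-21160905, GRCm38). It was at 0.952, 1.86 and 2.08 CPM in stage IV, against 21.9, 24.7 and 30.6 CPM in stage III (-3.99 ± 0.33, SE, n = 3 each, adjusted p = 6.02e-05), a 15.9-fold loss. Emb, which encodes embigin, a partner of monocarboxylate transporters, was at 9.03, 15.4 and 16.8 CPM in stage IV and 187, 238 and 210 CPM in stage III (-3.95 ± 0.21, adjusted p = 5.19e-06). Ltb, the lymphotoxin beta chain used in lymphoid tissue organisation, was at 0.952, 1.82 and 1.98 CPM in stage IV and 25.6, 25.4 and 18.8 in stage III (-3.89 ± 0.51, adjusted p = 0.00118). Myb and Ltb were at most 2.08 CPM in every stage IV library, and for all 3 genes each stage III library exceeded every stage IV library by several fold. The choice of genes by large change and no overlap favoured this separation. Slamf6, a self-ligand receptor of the SLAM family, was at 2.69, 2.12 and 3.35 CPM in stage IV, against 41.3, 37.2 and 30.6 CPM in stage III (-3.75 ± 0.18, adjusted p = 3.49e-06).

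The other genes among the 15 lowest were of mixed function. Slco3a1, an organic anion transporter, fell by 3.40 on the log2 scale (SE 0.18), Jaml, a junctional adhesion molecule, by 3.33 (SE 0.32), and Rgs10, a regulator of G protein signalling, by 3.22 (SE 0.32). Kbtbd11, a Kelch protein, was at 6.25, 5.16 and 4.32 CPM in stage IV against 59.5, 52.5 and 39.6 CPM in stage III (-3.26 ± 0.21). H2-Oa, a chain that modulates peptide loading of MHC class II, was at 1.78, 2.5 and 0.711 CPM in stage IV and 19.6, 15.8 and 10.1 CPM in stage III. Pdcd1lg2, the gene of the PD-1 ligand PD-L2, fell by 3.04 (SE 0.27), Oas3, an interferon-induced oligoadenylate synthetase, by 2.99 (SE 0.16), Ccn5, a matricellular protein, by 2.92 (SE 0.50), Clip3, a microtubule-linked adaptor, by 2.90 (SE 0.35) and the cytokine gene Tnf by 2.85 (SE 0.46). Pclaf, a PCNA-binding factor of DNA replication, fell by 3.13 (SE 0.75), and its call ended without stage III replicate 2 or any of the stage IV libraries, where its log2 change was between -3.64 and -2.46.

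**Figure D2:**
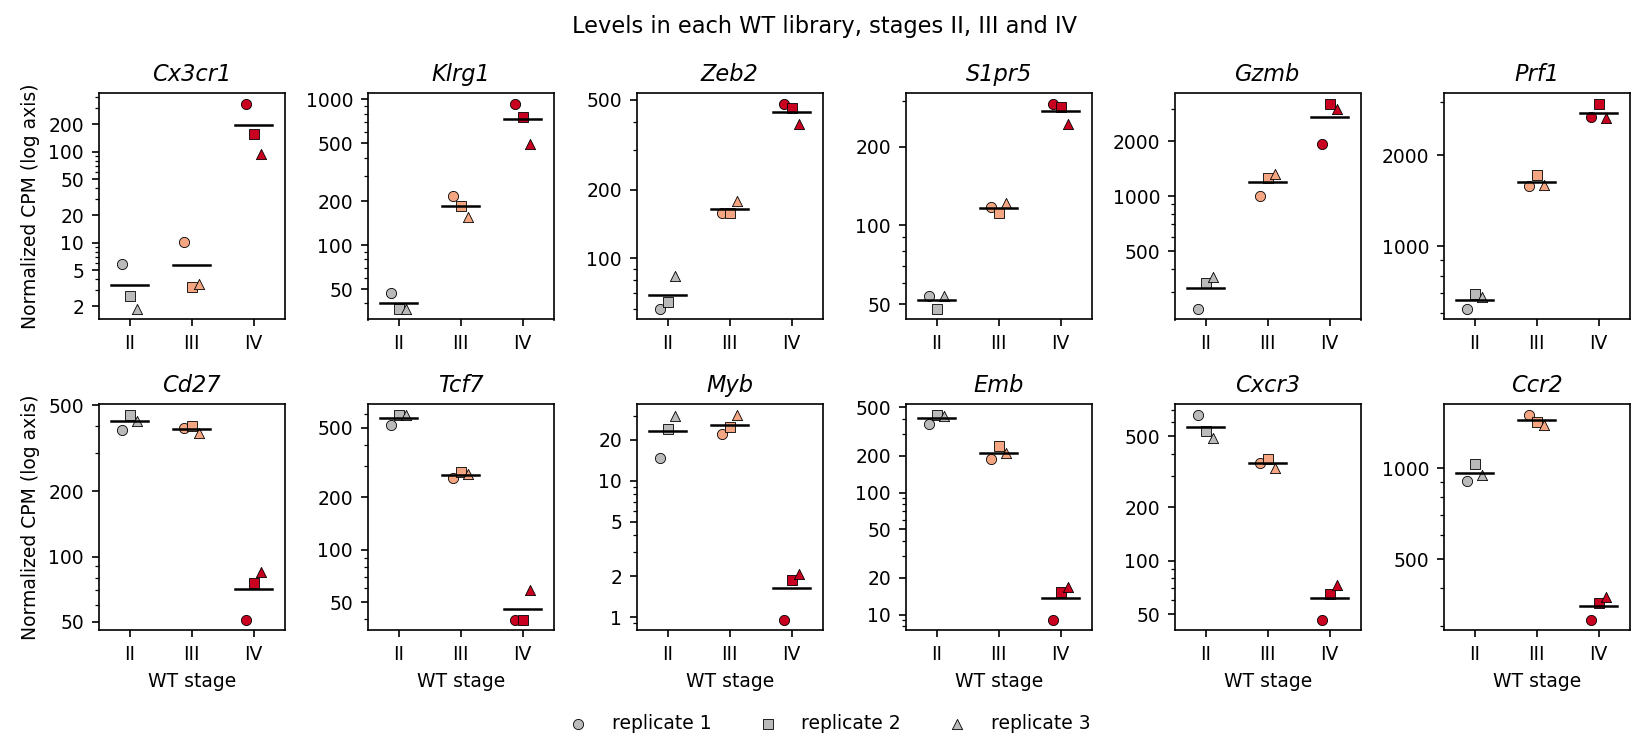
Normalized CPM on log axes for 12 genes in each WT library of stages II, III and IV. Symbols mark the replicate number and horizontal bars the mean of 3 libraries. In the upper row all stage IV libraries lie above all stage III libraries, and in the lower row below them.

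By number of reads, with no correction for transcript length, the 5 largest gains among called genes were in Ccl5, Gzma, Gzmb, Prf1 and Ctsd. Ccl5, the chemokine RANTES that NK cells store, was at 30048, 24535 and 24374 CPM in stage IV and 21938, 17476 and 17900 CPM in stage III (0.46 ± 0.11, adjusted p = 0.0269). Gzma, granzyme A, was at 16588, 15260 and 14205 in stage IV and 11131, 8948 and 8469 in stage III (0.69 ± 0.11, adjusted p = 0.0039). The groups of both genes were separate, although the fold changes were small. The call of Ccl5 ended without stage III replicate 2 or 3 or stage IV replicate 1 or 2, where the change lay between 0.36 and 0.57, and without a filter on low counts. Gzmb, granzyme B, was at 1925, 3203 and 2981 CPM in stage IV and 1004, 1254 and 1328 in stage III (1.18 ± 0.21, adjusted p = 0.00552). Prf1, the gene of perforin, which makes pores in the target cell, was at 2686, 2965 and 2666 in stage IV and 1579, 1719 and 1600 in stage III (0.76 ± 0.08, adjusted p = 0.000342). Ctsd, a lysosomal cathepsin, rose by 0.34 ± 0.08, a call that ended without stage III replicate 1, 2 or 3 or stage IV replicate 1 or 2 and without a filter (0.29 to 0.41 when 1 library was left out). The calls of Ccl5, Gzma and Ctsd also ended in the fit to all 18 libraries.

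The largest read losses were of a different kind. Shisa5, a membrane protein of the endoplasmic reticulum, was at 2481, 2580 and 2474 CPM in stage IV and 4018, 4209 and 3686 CPM in stage III (-0.66 ± 0.08, adjusted p = 0.000649). Eef1a1, a translation elongation factor, was at 2086, 2195 and 1966 in stage IV and 3086, 3429 and 3497 in stage III (-0.68 ± 0.12), and Rpl4, a protein of the large ribosomal subunit, was at 1745, 1743 and 1700 against 2741, 2844 and 2844 CPM in stage III (-0.70 ± 0.10). Both belong to the translation machinery, and neither shows overlap between stages. Ms4a4b, a tetraspan membrane protein of T and NK cells, fell by 0.74 on the log2 scale (SE 0.16), with its call ended without stage III replicate 1 or 2 or stage IV replicate 2 or 3 (-0.88 to -0.60 when 1 library was left out). Ccr2, the fifth of these, is described with the trafficking genes.

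Gene sets known from earlier work on NK maturation were counted first. All lists were chosen with earlier results of these data known, so their counts are descriptions and no independent test. Counts of list members are set against all tested genes, of which 3.73% were called higher and 7.17% lower, with a median of 0.0080. Of 23 early NK genes, all tested, 15 were called lower and 0 higher, with a median log2 fold change of -1.71. Without Cd27, whose protein the sort used, 14 of 22 were lower, also with a median of -1.71. Besides Emb and Ltb these included Thy1, a glycoprotein of T cells and young NK cells, at 11.2, 15.4 and 11.5 CPM in stage IV and 80.5, 76.1 and 70.8 in stage III (-2.58 ± 0.14), and Ly6e (-1.45 ± 0.09). Of 22 late NK genes 18 were tested, and 12 were called higher, against 3.73% of all genes, and 1 lower, with a median of 0.67. Cx3cr1, Cma1, Klrg1, Entpd1 and Ly6c2 led this set, followed by Spn, the sialoglycoprotein CD43 (0.75 ± 0.08), and Rap1gap2, a regulator of granule secretion (0.61 ± 0.10). The exception was S1pr1, described below. Leaving out 1 library gave 13 to 18 early genes called lower and 9 to 13 late genes called higher.

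Transcription factors of the early stages were lower where called, and those of the late stages mostly higher. Of 19 early factors 3 were called lower (Myb, Tcf7 and Ikzf2) and 0 higher, against 7.17% lower and 3.73% higher of all genes, with a median of -0.03. Tcf7, which encodes TCF-1, was at 39.5, 39.6 and 58.9 CPM in stage IV and 256, 277 and 270 CPM in stage III (-2.54 ± 0.15, adjusted p = 8.5e-06), and its stage III libraries were all more than 4 times the highest stage IV library. Of 25 late factors, 4 were called higher (Zeb2, Irf8, Zbtb16 and Foxo3) and 1 lower, with a median of 0.14. Zeb2, a zinc finger repressor needed for terminal NK cells, was at 479, 458 and 390 CPM in stage IV and 158, 159 and 180 CPM in stage III (1.42 ± 0.13, adjusted p = 0.000139). Irf8, an interferon regulatory factor used by mature NK cells, was at 682, 861 and 763 in stage IV and 424, 493 and 444 in stage III (0.76 ± 0.11). Foxo1, a factor that restrains NK maturation, fell by 0.46 (SE 0.07), but was not called in the fit to all 18 libraries.

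The T-box factor Tbx21, which encodes T-bet, was at 205, 218 and 175 CPM in stage IV and 156, 142 and 131 in stage III. All stage IV libraries were the higher, at 0.48 ± 0.14, with an adjusted p of 0.0552 that missed the threshold and 0.00069 with the replicate block. Prdm1, which encodes BLIMP-1, a repressor of effector lymphocytes, was also short of the threshold (0.62 ± 0.18, adjusted p = 0.0557, 4.7e-06 with the block). With the block 11 late factors were called higher, against 4 without it, and the count was 2 without stage III replicate 1 or 2 or stage IV replicate 2 or 3.

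Receptors that guide NK cells between blood, spleen and lymph node changed in both directions. Of 33 listed trafficking receptors and integrins 30 were tested, and 5 were called higher and 9 lower, with a median of -0.55. S1pr5, the sphingosine 1-phosphate receptor that mature NK cells use to leave bone marrow and lymph node, was at 292, 284 and 246 CPM in stage IV and 118, 112 and 122 CPM in stage III (1.23 ± 0.09, adjusted p = 2.33e-05). S1pr1, its relative used by T cells, went the other way, with 88.4, 99.3 and 92.6 CPM in stage IV and 193, 192 and 203 CPM in stage III (-1.07 ± 0.12, adjusted p = 0.000573). Both differences exceeded the spread within the stages.

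Chemokine receptors of inflamed tissue and lymphoid organs were among the losses. Cxcr3, the receptor for interferon-induced chemokines, was at 46.3, 64.6 and 73.1 CPM in stage IV against 354, 375 and 330 CPM in stage III (-2.52 ± 0.17, adjusted p = 1.82e-05). Ccr2, the receptor for CCL2 (9, 124101950-124113557, GRCm38), was at 314, 359 and 375 CPM in stage IV and 1504, 1427 and 1390 in stage III (-2.04 ± 0.09, adjusted p = 3.49e-06), with no overlap. Gpr183, the oxysterol receptor EBI2 that positions lymphocytes in the spleen, was at 4.68, 4.87 and 6.96 CPM in stage IV and 12.5, 19.1 and 23.9 in stage III (-1.76 ± 0.25). Gpr15, a gut and skin homing receptor, fell by 2.46 (SE 0.28) at low levels in both stages. Smaller losses were called for the integrin Itgax (-0.65 ± 0.09) and the hyaluronan receptor Cd44 (-0.56 ± 0.09), and the call of Cd44 ended in the fit to all 18 libraries.

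Without stage II replicate 2 the list had 3 receptors called higher, and without stage III replicate 1, 2 or 3 or stage IV replicate 1 or 2 it had 2, against 5. Between 9 and 13 were called lower when 1 library was left out, and 15 with the replicate block or without a filter on low counts.

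**Figure D3:**
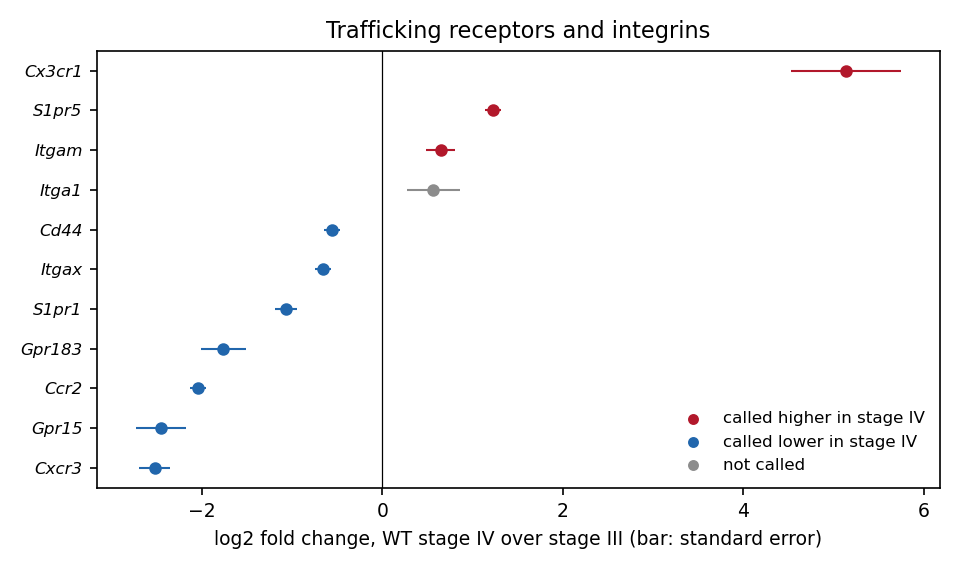
Log2 fold change of WT stage IV over stage III for 11 trafficking receptors and integrins described in the text, with bars for the standard error. Red points were called higher in stage IV, blue points lower, and the grey point (Itga1) was not called. Cx3cr1 lies at 5.14, apart from the other receptors, and Cxcr3, Gpr15 and Ccr2 are the lowest called.

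Cytotoxic granule genes did not move as a block. Of 22 tested of 23, 6 were called higher (Gzmb, Prf1, Gzma, Ctsc, Ctsd and Stx11) and 2 lower (Gzmm and Gzmc), with a median of 0.10. Of all genes 3.73% were higher and 7.17% lower, so the count called lower is near the share over all genes. Gzmm, granzyme M, was at 5.30, 8.76 and 9.45 CPM in stage IV and 29.0, 42.7 and 41.5 CPM in stage III (-2.27 ± 0.21, adjusted p = 0.000144), opposite to granzymes A and B. Gzmk, granzyme K, was at 22.5, 5.59 and 6.15 CPM in stage IV and 66.8, 21.4 and 20.9 in stage III (-1.66 ± 0.57). Replicate 1 was more than 3 times each other library of its stage, and the gene passed the threshold with the replicate block (adjusted p = 0.00088) but not without it (adjusted p = 0.0957). With the block 10 members were called higher and 7 lower. The number called higher was 3 without stage III replicate 2 or 3, and the number called lower was 1 without stage III replicate 1, 2 or 3 or stage IV replicate 3.

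Secreted factors also went in both directions. Of 12 cytokines and chemokines tested of 15, Ccl9 and Ccl5 were called higher and Ltb, Tnf, Lta and Csf2 lower, with a median of -0.09. Tnf was at 0.248, 1.4 and 1.02 CPM in stage IV and 3.47, 8.58 and 6.97 CPM in stage III. Csf2, the gene of GM-CSF, was at 1.53, 3.47 and 3.91 CPM in stage IV and 7.25, 13.5 and 12.4 in stage III (-1.91 ± 0.33). Replicate 1 was the lowest library of its stage for both genes. Ifng, the gene of interferon-gamma, had 434, 928 and 754 CPM in stage IV and 440, 858 and 889 in stage III (-0.05 ± 0.35, adjusted p = 0.957), so replicate 1 differed more from the other replicates than the stages did. The number called higher was 1 without stage III replicate 2 or 3 or stage IV replicate 1 or 2, and 4 with the block.

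Among the Ly49 receptors, lectin-like receptors for MHC class I, 12 of 13 listed were tested, and 3 were called higher and 2 lower (median 0.06). Klra9, which encodes Ly49I, was at 992, 1122 and 1022 CPM in stage IV and 391, 462 and 469 CPM in stage III (1.25 ± 0.10, adjusted p = 5.41e-05), and Klra10 rose by 0.78 ± 0.15. These genes are near copies of each other, so how reads were divided among them is uncertain. The calls of the members called lower ended without stage III replicate 2 or stage IV replicate 2 for both, and for 1 of them without stage III replicate 1 or stage IV replicate 1 or 3.

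Of 32 other NK receptors tested of 38, 10 were called lower and 3 higher (median -0.11). After Slamf6 the losses were in Cd160, a receptor for HVEM, with 101, 157 and 187 CPM in stage IV and 612, 599 and 554 CPM in stage III (-1.99 ± 0.19), in Cd7 (-1.27 ± 0.12) and in the inhibitory receptor Tigit, with 51.3, 53.1 and 57.5 CPM in stage IV against 119, 139 and 120 CPM in stage III. Cd48, the ligand of the SLAM receptor 2B4, rose by 0.38 ± 0.07, a call that ended without a filter and in the fit to all 18 libraries. Ncr1, the natural cytotoxicity receptor NKp46, had 2079, 4250 and 3915 CPM in stage IV and 2087, 3940 and 3724 in stage III (0.07 ± 0.31, adjusted p = 0.922), with replicate 1 the lowest in both stages. Without stage IV replicate 2 the number called lower was 6, and without stage III replicate 1, 2 or 3 or stage IV replicate 1 or 2 the number called higher was 1.

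Of 36 cytokine receptors and signalling genes tested of 38, 6 were called lower and 5 higher (median -0.07). Il7r, the interleukin-7 receptor, was at 2.90, 5.2 and 6.15 CPM in stage IV and 20.7, 19.3 and 29.2 CPM in stage III (-2.29 ± 0.28), and Socs2, a feedback inhibitor of cytokine signalling, was at 2.57, 1.95 and 2.49 against 10.3, 10.7 and 13.1 CPM in stage III (-2.28 ± 0.22). Both were low but separate in every library. Il18rap, a chain of the interleukin-18 receptor, was at 1185, 1017 and 906 CPM in stage IV and 705, 715 and 730 in stage III (0.53 ± 0.10), a call that ended without stage III replicate 2. When 1 library was left out, 0 to 5 members were called higher, the fewest without stage III replicate 2 and 3 or fewer without stage III replicate 1 or 3 or any stage IV library. Between 2 and 8 were called lower, with 3 or fewer without stage III replicate 2 or 3 or any stage IV library, and with the block 11 were lower.

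Genes of cell division were called in both directions. Of 50 tested, 6 were lower, against 7.17% of all genes, and 5 higher, against 3.73%, with a median of -0.34, and the block raised the number lower to 21. Cdk6, a kinase of the early cell cycle, was at 41.2, 43.3 and 54.9 CPM in stage IV and 104, 114 and 99.6 CPM in stage III (-1.19 ± 0.21), a call not made in the fit to all 18 libraries. Dut, which keeps uracil out of DNA, was at 9.98, 10.1 and 11.7 CPM in stage IV and 21.2, 23.4 and 22.3 in stage III (-1.08 ± 0.16). Cdk2, a kinase of DNA synthesis, went the other way, with 14, 11.6 and 13.7 CPM in stage IV against 7.02, 6.54 and 6.32 CPM in stage III (0.98 ± 0.12, adjusted p = 0.000677). The number called lower was 2 without stage III replicate 2 or 3 or any stage IV library, and the number higher was 1 or 2 without stage III replicate 1, 2 or 3 or stage IV replicate 2 or 3. Of 26 apoptosis regulators tested of 27, 1 was called higher and 0 lower, against 3.73% higher and 7.17% lower of all genes. The count called higher is near the share over all genes. By edgeR 4 were lower at an unadjusted p under 0.05, DESeq2 called 3 lower, and the median was 0.02. The survival gene Bcl2 was at 264, 230 and 209 CPM in stage IV and 309, 307 and 276 in stage III, without overlap, at -0.34 ± 0.10 (adjusted p = 0.0549, 0.0067 with the block). With the block 7 apoptosis regulators were called higher and 5 lower, and without stage IV replicate 1 the counts were 3 higher and 2 lower.

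The genes of cytosolic ribosomal proteins were nearly all lower in stage IV. Of 79 tested of 82, 51 were called lower and 0 higher, against 7.17% of all genes lower, and 77 had a fold change below 0, with a median of -0.55 against 0.0080 over all tested genes. The summed level of the set was 16703, 15411 and 14356 CPM in stage IV and 25119, 23452 and 23857 CPM in stage III. All stage IV libraries were below all stage III libraries. Between 48 and 53 members were called lower when 1 library was left out, and 20 in the fit to all 18 libraries. Ribosomal protein genes have many processed pseudogenes, so their reads can be shared with near copies and single members are uncertain.

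Calls among genes of growth and metabolism were losses. Of 27 genes of Myc and biosynthesis tested of 28, 8 were called lower and 0 higher (median -0.33), among them Slc38a1, a glutamine transporter, with 90.0, 90.5 and 91.6 CPM in stage IV and 127, 143 and 140 in stage III (-0.59 ± 0.08). Myc itself was at 46.1, 74.3 and 105 CPM in stage IV and 135, 264 and 272 CPM in stage III (-1.58 ± 0.40, adjusted p = 0.0334), a call that ended without stage III replicate 2 or 3 or stage IV replicate 1 or 2 (-1.90 to -1.32 when 1 library was left out) and in the fit to all 18 libraries. The list's count was 3 or fewer without stage III replicate 2 or 3 or any stage IV library, and 16 with the block. Of 22 glycolytic genes 4 were lower and 0 higher (median -0.25, 9 lower with the block): Pdk1, which restrains pyruvate oxidation (-1.39 ± 0.20), the monocarboxylate transporter Slc16a1, a partner of embigin's family (-1.17 ± 0.20), Gpi1 (-0.61 ± 0.08) and Ldha. Pdk1 was at 4.97, 3.94 and 5.03 CPM in stage IV and 13.7, 9.42 and 13.6 CPM in stage III. Of 27 respiratory chain genes 4 were lower, with a median of -0.10, and of 21 genes of sterol and fatty acid synthesis 2 were lower, with a median of -0.07. Against 7.17% of all genes lower, the sterol count is near the share over all genes. The respiratory count was 0 or 1 without stage III replicate 1, 2 or 3 or stage IV replicate 1, 2 or 3. The sterol count was 0 or 1 without stage II replicate 2, stage III replicate 2 or 3 or any stage IV library.

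**Figure D4:**
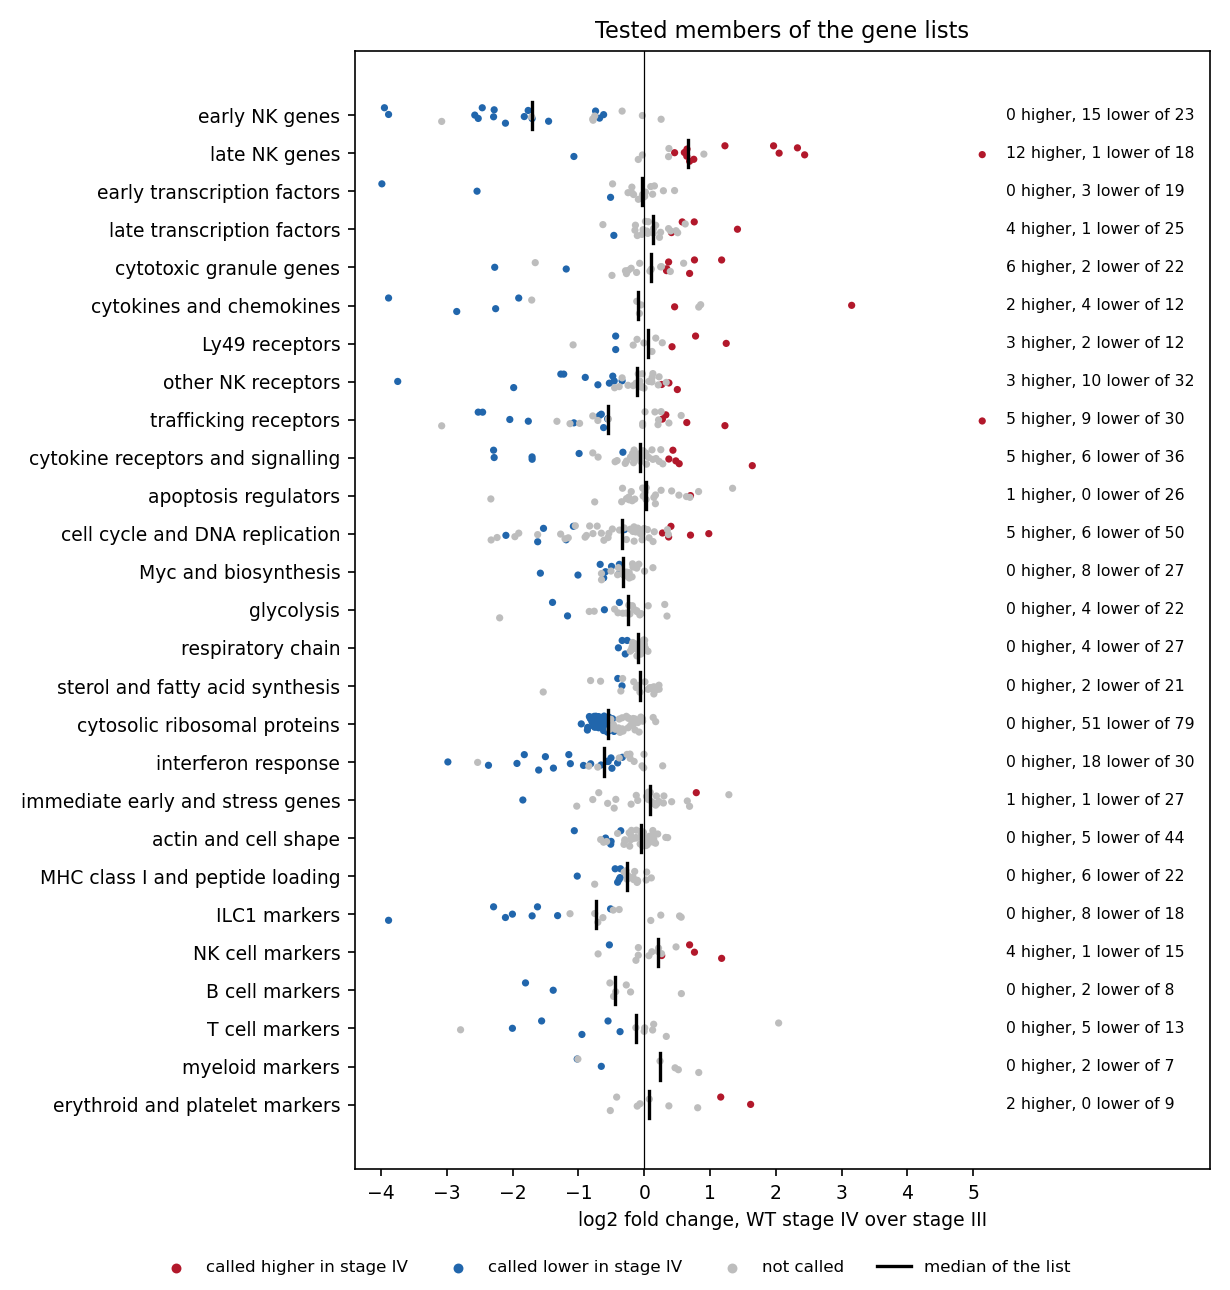
Log2 fold change of WT stage IV over stage III for the tested members of each gene list, with a black bar at the list's median. Red points were called higher in stage IV, blue points lower and grey points were not called, and the counts stand at the right. The early NK genes (median -1.71), ribosomal proteins and interferon genes lie mostly left of 0, and the late NK genes right of it.

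Interferon response genes, which type I interferon switches on through promoter elements with paired GAAA motifs that bind interferon regulatory and STAT factors, were lower in stage IV. Of 30 tested of 31, 18 were called lower, against 7.17% of all genes, and 0 higher, 29 had a fold change below 0, and the median was -0.61. The summed level of the list was 1591, 1535 and 1504 CPM in stage IV against 2128, 1936 and 1902 CPM in stage III. The 4 lowest members called lower with a single promoter entry and a match to the core of that element (GAAA, any 2 bases, GAAA) are shown because their promoters share the element. Each is given 5′ to 3′ on its own strand over the 250 bases before the gene's start, from the RefSeq promoter table of build GRCm38.p6, and capitals mark matches on either strand.

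Oas3 (chr5:120777660-120777909, minus strand): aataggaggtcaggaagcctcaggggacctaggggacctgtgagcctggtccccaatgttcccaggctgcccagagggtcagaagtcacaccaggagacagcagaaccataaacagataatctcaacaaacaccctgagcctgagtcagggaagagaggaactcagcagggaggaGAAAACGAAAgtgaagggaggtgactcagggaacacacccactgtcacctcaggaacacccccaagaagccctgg
Ifit3 (chr19:34583279-34583528, plus strand): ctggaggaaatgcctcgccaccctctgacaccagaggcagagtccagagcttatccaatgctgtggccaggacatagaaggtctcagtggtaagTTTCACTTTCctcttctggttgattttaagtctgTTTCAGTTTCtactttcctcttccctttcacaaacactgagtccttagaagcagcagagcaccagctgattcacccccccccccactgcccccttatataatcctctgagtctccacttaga
Rsad2 (chr12:26456453-26456702, minus strand): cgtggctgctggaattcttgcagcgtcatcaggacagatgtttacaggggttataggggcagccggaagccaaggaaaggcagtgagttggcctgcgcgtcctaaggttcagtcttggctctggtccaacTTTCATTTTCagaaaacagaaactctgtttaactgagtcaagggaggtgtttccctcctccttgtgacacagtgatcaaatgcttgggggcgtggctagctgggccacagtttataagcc
Ifit1 (chr19:34640639-34640888, plus strand): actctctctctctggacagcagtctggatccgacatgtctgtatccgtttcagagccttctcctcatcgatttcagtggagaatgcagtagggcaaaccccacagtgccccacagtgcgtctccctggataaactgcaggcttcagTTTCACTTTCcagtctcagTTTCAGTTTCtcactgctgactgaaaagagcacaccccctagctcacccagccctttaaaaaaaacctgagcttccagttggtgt

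Oas3 had 1 match, beginning 75 bases before the start, and was at 1.61, 1.78 and 2.19 CPM in stage IV against 15.6, 15.4 and 13.1 CPM in stage III (-2.99 ± 0.16, adjusted p = 5.51e-06). Ifit3, whose product binds foreign RNA together with its relatives, had 2 matches and was at 4.93, 3.51 and 4.62 CPM in stage IV and 20.6, 14.7 and 14.7 CPM in stage III (-1.94 ± 0.23). Rsad2, the antiviral enzyme viperin, had 1 match and was at 1.53, 1.14 and 1.47 CPM in stage IV and 4.51, 5.66 and 4.52 in stage III (-1.82 ± 0.20). Ifit1, with 2 matches, fell by 1.5 (SE 0.23). All stage IV libraries of these 4 genes were below all stage III libraries. The Ifit genes are similar in sequence, so the division of reads among them is uncertain.

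Promoter entries were found for 15 of the 18 members called lower. The core, GAAA, any 2 bases and GAAA, searched on both strands over 300 bases (250 before and 50 after the start), was in 70.6% of their 17 windows and in 38.5% of the 13 windows of members not called, against 3.44% of all 32851 windows in the table. It was in 6.22% of the windows of all genes called lower, in 3.16% of those called higher and in 3.17% of those of tested genes. The 56 windows with the core among genes called lower include 12 of the interferon list. These shares describe letters and not binding. In the same windows the T-box half-site AGGTGT was in 11.2% for genes called higher and 14% for genes called lower, against 10.9% for tested genes, and the E-box CAGGTG bound by ZEB factors, which can overlap AGGTGT, was in 20.2% for genes called higher and 23.1% for genes called lower, against 17.8% for tested genes. For CCACCC, bound by KLF factors, the shares were 42.9% for genes called higher and 35.4% for genes called lower, against 36.3% of windows of tested genes. The TCF site TCAAAG was in 11.2% for genes called higher and 12.2% for genes called lower, against 12.2% for tested genes.

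Other called members were Ifi44 (-2.37 ± 0.28, not called in the fit to all 18 libraries), Oasl2 (-1.61 ± 0.28), an oligoadenylate synthetase relative, and Usp18, the protease that removes ISG15, with 27.3, 31.7 and 35.4 CPM in stage IV and 65.7, 76.6 and 66.8 CPM in stage III (-1.15 ± 0.10). Ube2l6, which acts in the opposite direction to Usp18 on ISG15, was higher in stage IV as given above. It is not on this list, whose highest member was at 0.28, so the list's counts do not cover it. The list's count fell to 11 without stage III replicate 1 and to 10 without stage IV replicate 2, and was 9 in the fit to all 18 libraries.

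Further lists were counted in the same way. Of 27 immediate early and stress genes tested of 28, Dusp2 was called higher and Klf4 lower, with a median of 0.09. Of all tested genes 3.73% were higher and 7.17% lower, so neither count exceeded the share over all genes. With the block 5 members were higher and 7 lower. The rise of Dusp2, a phosphatase of MAP kinases, lost its call without stage III replicate 1 or 2 or stage IV replicate 2 or 3. Klf4 was at 7.45, 13.8 and 18.1 CPM in stage IV and 34.7, 48.2 and 57.6 CPM in stage III (-1.85 ± 0.32). Of 44 genes of actin and cell shape 5 were lower and 0 higher (median -0.05), among them Cotl1, an actin-binding protein (-0.59 ± 0.09), Evl, which extends actin filaments (-0.51 ± 0.10), and Gsn, the actin-severing protein gelsolin (-1.06 ± 0.17). None of these 3 was called in the fit to all 18 libraries, and 14 members were called lower with the block and 3 without stage III replicate 2 or stage IV replicate 1 or 3. Of 22 genes of MHC class I and peptide loading 6 were lower, against 7.17% of all genes, and 0 higher (median -0.26), and 15 with the block. Tapbpl, the peptide editor TAPBPR, led them, with 110, 128 and 118 CPM in stage IV and 251, 245 and 225 CPM in stage III (-1.02 ± 0.10). For the lists above with 0 members called higher, edgeR gave an unadjusted p under 0.05 in that direction for 1 glycolytic, 1 interferon and 3 actin genes and for 0 genes of the other lists, and DESeq2 called 1 glycolytic gene higher. The MHC class I count was 2 or 3 without stage III replicate 1 or 2 or stage IV replicate 2 or 3.

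Markers of other cells were read in the same libraries, since fewer cells of a type and less RNA per cell cannot be told apart in sorted bulk samples. The summed level of 15 NK cell markers was 49681, 50103 and 47185 CPM in stage IV and 41834, 39278 and 37362 CPM in stage III. Of these markers 4 were called higher and 1 lower (median 0.21), against 3.73% higher and 7.17% lower of all genes. Gzma alone was at 16967, 14636 and 13683 CPM of the total in stage IV and 11259, 8637 and 8187 in stage III, while Il2rb, a chain of the interleukin-2 and interleukin-15 receptors, had 1989, 2048 and 1527 CPM in stage IV and 3329, 3200 and 2521 in stage III and was not called (adjusted p = 0.0556). The marker called lower was Fcgr3, the Fc receptor CD16 (-0.53 ± 0.10), a call that ended without stage IV replicate 2 and in the fit to all 18 libraries. Markers of type 1 innate lymphoid cells, relatives of NK cells that share many early NK genes, summed to 82.0, 110 and 109 CPM in stage IV and to 215, 236 and 233 CPM in stage III. Of 18 such markers 8 were called lower and 0 higher (median -0.73), including Kit (-2.11 ± 0.33), Inpp4b (-1.62 ± 0.22), Tmem176a (-1.32 ± 0.22) and Cd3g. Itga1, which encodes CD49a, was not called (0.56). Ltb, Il7r, Kit and Il2ra stand both on this list and among the early NK genes.

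T cell markers summed to 539, 634 and 629 CPM in stage IV and 773, 781 and 775 CPM in stage III, and 5 of 13 tested were lower (3 without stage III replicate 2 or 3), with a median of -0.13. Cd3g was at 3.56, 3.17 and 3.61 CPM in stage IV and 13.1, 16.8 and 11.5 CPM in stage III (-2.0 ± 0.16) and Cd3d fell by 1.56 (SE 0.15), and Icos by 0.95 (SE 0.14). Cd3e was low and went the other way, with 1.61, 1.38 and 0.685 CPM in stage IV and 0, 0.494 and 0.333 CPM in stage III, and was not called (adjusted p = 0.195). Of the 13 tested, 8 had a fold change below 0. Cd4, Cd8a and Cd8b1 were at most 0.325 CPM in each of the 6 libraries. B cell markers summed to 240, 326 and 364 CPM in stage IV and 766, 781 and 719 CPM in stage III. Most of that was Ighm, with 224, 269 and 316 CPM in stage IV and 734, 728 and 659 CPM in stage III, while Ms4a1 was at most 0.889 CPM and Pax5 had 0 reads in these 6 libraries, which allows at most 0.147 CPM by counting error alone. Cd74, a chaperone of MHC class II, was at 7.03, 30.6 and 25.5 CPM in stage IV and 15.5, 29.8 and 31.2 CPM in stage III, and Igkc was at 2.58, 11.1 and 9.94 CPM in stage IV and 1.89, 3.70 and 10.3 CPM in stage III, so the stages overlapped for both. Of 8 B cell markers tested 2 were lower (Ighm and Cd22, median -0.45). Myeloid markers summed to 295, 266 and 240 CPM in stage IV and 457, 400 and 396 CPM in stage III, nearly all from Itgax, and 2 of 7 tested were lower, with a median of 0.24 and 3 of 7 below 0. Lyz2, the lysozyme of macrophages, was at 0.339, 7.95 and 2.10 CPM in stage IV and 0.784, 2.64 and 2.44 CPM in stage III, highest in stage IV replicate 2, while Lyz1, Mpo and Elane had at most 0.141 CPM. Erythroid and platelet markers were at 7.54, 14.6 and 11.2 CPM in stage IV and 6.46, 9.48 and 9.07 CPM in stage III, and 2 of 9 tested were higher, Itga2b and Gp1bb, neither of them called in the fit to all 18 libraries. Of the exon bases of Gp1bb, 31.5% lie in Sept5 on the same strand, so its reads may be split with that gene. The part of these cells in the losses of early NK genes and receptors was not tested.

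The earlier step, from stage II to stage III, shares the stage III libraries, so values of both steps are set side by side and the difference between the steps was tested in the same fit. For 216 genes, 1.65% of those tested, the step from III to IV differed from that from II to III (76 genes, 0.582%, with a higher second step and 140 genes, 1.07%, with a lower one). Of these, 157 were also called between stages IV and III. For 69 of them the second step was a loss and the first step was not called, and for 32 a called rise from II to III was followed by a loss. For 24 a called fall from II to III was followed by a rise, 19 fell in both steps, 9 rose in the second step with the first not called, and 4 rose in both. An error in the stage III mean moves the steps in opposite directions, which favours the classes of 32 and 24 genes that turn. Without 1 library the number called ran from 73 to 231, with the fewest without stage III replicate 2 (73) or 3 (84), and with the block it was 802.

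Myb had the lowest difference among the genes also called in the step itself, with 14.8, 24.2 and 30.1 CPM in stage II, the stage III and IV levels given above, a first step of 0.16 and a second of -3.99 (difference -4.15 ± 0.47, adjusted p = 0.0017). Ccn5 (-3.77 ± 0.76), Kbtbd11 (-3.06 ± 0.32), Lcn4, a lipocalin (-3.04 ± 0.40), and Emb (-3.01 ± 0.31) came next. Thy1 had the same form, with 64.0, 60.8 and 50.7 CPM in stage II and a difference of -2.95 ± 0.21. So did Cd27, with 386, 452 and 423 CPM in stage II. The sort took stages II and III with CD27 protein and stage IV without it, so the form of Cd27 is no finding. Ccr2 was at 906, 1029 and 952 CPM in stage II, rose by 0.58 in the first step and then fell by 2.04 (difference -2.63 ± 0.15, adjusted p = 6.7e-05). S1pr1 also turned, with 72.0, 104 and 99.3 CPM in stage II, a first step of 1.09 and a second of -1.07. Its stage IV level was back in the range of stage II.

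At the other end were genes that dipped in stage III. Cdk2 was at 18.2, 17.1 and 19.5 CPM in stage II, with a first step of -1.46 and a second of 0.98 (difference 2.44 ± 0.21, adjusted p = 0.00045). Cym was at 71.3, 60.2 and 84.3 CPM in stage II, so that the stage III level was the lowest of the 3 stages (difference 3.28 ± 0.39). P2rx4, an ATP-gated channel (3.89 ± 0.57), Rgs18, a regulator of G protein signalling (3.01 ± 0.51), and Pkd1, a polycystin (2.41 ± 0.37), had the same form. Their second step was less firm. P2rx4 lost its call between stages IV and III without stage III replicate 1 or 3 or any stage IV library (1.02 to 1.66 when 1 library was left out), Rgs18 without any stage III library or stage IV replicate 2 or 3 (0.86 to 1.35), and Pkd1 without stage III replicate 2 (0.95 to 1.21), and all 3 lost it in the fit to all 18 libraries.

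For several genes of the late program no difference between the steps was called. Klrg1 was at 47.4, 36.4 and 36.7 CPM in stage II, with a first step of 2.22 and a second of 1.97 (difference -0.25 ± 0.37, adjusted p = 0.93). S1pr5 had steps of 1.18 and 1.23, and Zeb2 of 1.26 and 1.42 (differences 0.05 ± 0.15 and 0.15 ± 0.22). Cx3cr1 had 5.82, 2.61 and 1.86 CPM in stage II, a first step of 0.70 that was not called and a second of 5.14, but the difference of 4.44 ± 1.10 missed the threshold (adjusted p = 0.089).

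The same step in KO cells was taken from the fit to all 18 libraries. KO stage IV against KO stage III had 2509 of 14156 genes called, or 17.7%, of which 896 (6.33%) were higher and 1613 (11.4%) lower in KO stage IV. Among the 487 genes called higher in WT stage IV, 421 (86.4%) were also higher in KO stage IV, 244 were called higher there and 3 called lower. Of the 937 genes called lower in WT stage IV, 863 (92.1%) were lower in KO stage IV, 611 were called lower and 1 higher, while 66.4% of all genes had the same sign in both genotypes. Eomes RNA was at 121, 109 and 89.8 CPM in KO stage IV and 160, 155 and 135 CPM in KO stage III, against 237 to 287 CPM in the WT libraries of both stages, so it was lower in every KO library but not absent. KO stage III replicates 1 and 3 had reads in 14824 and 16536 genes, fewer than the other libraries, and their 10 most abundant genes held 17.0% and 20.6% of reads. Xist was at 27.7, 17.3 and 16.3 CPM in KO stage IV and 16.6, 9.84 and 5.66 CPM in KO stage III. These levels were below WT replicate 1 and above WT replicates 2 and 3 (at most 0.636 CPM) of both stages. The genotypes thus also differed in Xist, and the part of this in the genotype comparison was not tested.

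**Figure D5:**
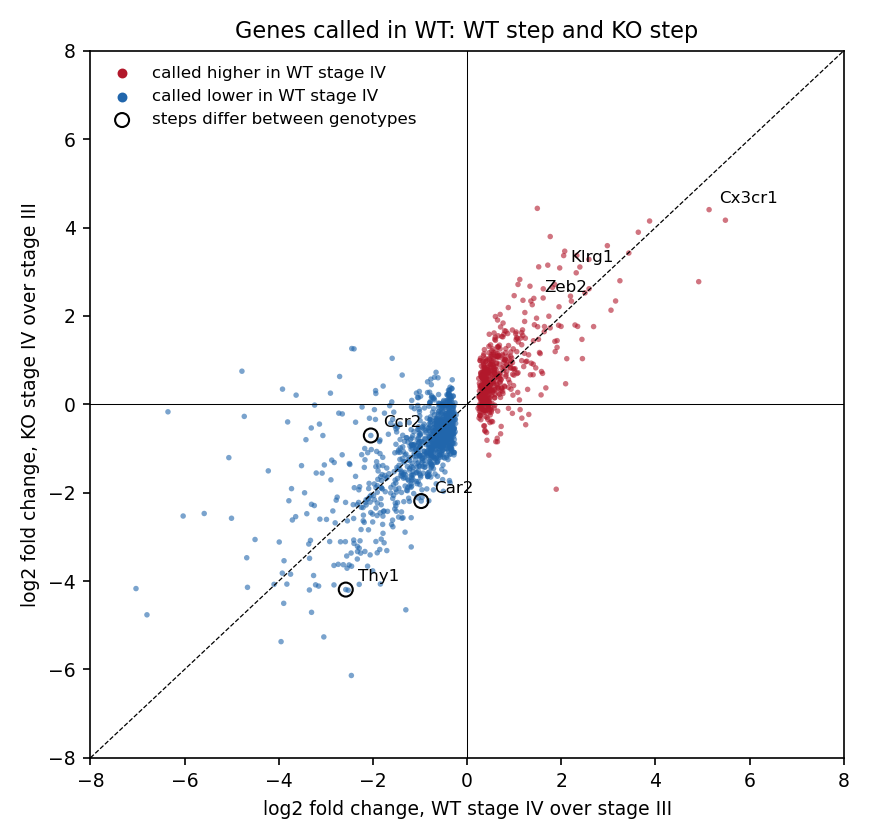
Log2 fold change of stage IV over stage III in KO cells (vertical axis) against that in WT cells (horizontal axis) for genes called in WT, red where called higher in WT stage IV and blue where called lower. The dashed line marks equal steps. Open circles mark Ccr2, Car2 and Thy1, whose steps were called different between the genotypes in the fit to all 18 libraries. Most points lie on the same side of 0 on both axes.

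The difference between the genotypes in this step, coded as the WT step minus the KO step, was called for 4 of 14156 genes, or 0.0283%. Ccr2 was at 421, 361 and 363 CPM in KO stage IV and 601, 600 and 450 CPM in KO stage III, against 321, 344 and 361 CPM in WT stage IV and 1521, 1377 and 1343 CPM in WT stage III. Its stage IV levels lay between 321 and 421 CPM in both genotypes, and its WT stage III libraries were above all others. The KO step was -0.71 and the WT step -2.04, with a difference of -1.33 ± 0.16 (adjusted p = 0.00387). Without WT stage III replicate 1 edgeR called 0 genes, with 1047 at an unadjusted p under 0.05.

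Tmem176b, a membrane protein abundant in innate lymphoid and dendritic cells, fell in KO cells by 2.28 and had a WT step of -0.47 that was not called (difference 1.81 ± 0.26, adjusted p = 0.0188). For Thy1 the KO step was -4.19 and the WT step -2.58 (difference 1.62 ± 0.26, adjusted p = 0.0384). Car2, a carbonic anhydrase, was at 441, 381 and 394 CPM in KO stage IV and 1837, 1470 and 1532 in KO stage III, against 652, 600 and 648 CPM in WT stage IV and 1377, 1220 and 1138 in WT stage III (difference 1.22 ± 0.20, adjusted p = 0.0397). The calls of Thy1 and Car2 each ended in 10 of the 12 fits that left out 1 stage III or IV library, and that of Tmem176b in 6. A fit without KO stage III replicates 1 and 3 together leaves 1 library in that arm, so its calls are not given. The number of genes called without 1 library ran from 0 to 2440, the highest without KO stage III replicate 2, and a fit to the 12 stage III and IV libraries alone called 0 genes, with 816 at an unadjusted p under 0.05. On all 18 libraries DESeq2 called 54.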

How the data were processed

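RNA was sequenced from sorted splenic NK cells. STAR 2.0.4, Subread and featureCounts 1.4.5 appear in the submitters' processing notes. No source used here states the genome build, the strand setting or the read type. Each deposited file lists, per its header, every Ensembl gene with its position, length and raw read count. From that count the authors made 2 further columns: the deposited CPM, scaled to the library total, and the deposited RPKM, which is that value divided by gene length in kilobases (recomputed within 6.63e-14). Only counts were used. Of 41388 genes, 40340 had an ID in GENCODE M21 (GRCm38), 40281 of them at an overlapping position.

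Counts were tested with edgeR 4.0.16 (R 4.3.3): genes filtered by group, TMM scaling, and a quasi-likelihood fit of the 9 WT libraries with 1 mean per stage. KO libraries were left out because some of KO stage III stood apart. P-values were adjusted by Benjamini and Hochberg's method, with calls under 0.05. SE is the absolute log2 fold change over the square root of F, an approximation, with a prior count of 0.125. Levels of genes are TMM-normalized CPM, while summed and marker levels and those compared between KO and WT are scaled to the library total without TMM. The genotype difference came from all 18 libraries. The scripts were tested on simulated data.

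Named genes were Cd27, Itgam and Eomes, the 15 highest and 15 lowest fold changes among called genes without overlap and with at least 5 CPM in the higher stage, the 5 largest gains and losses of CPM, members of 27 gene lists, and the 5 highest and lowest of the other tests. The comparison, lists and rules were chosen with earlier results of these data known. Same-numbered libraries deviated together: the correlations of their deviations from the stage means over 9060 genes (at least 5 CPM) were 0.753, 0.35 and 0.578 for replicates 1, 2 and 3. All were above 0.1, so the replicate numbers were taken to pair the libraries, a pairing found in the data and not stated in the labels. Unlike numbers passed 0.1 as well. Stage IV replicate 2 with stage III replicate 3 gave 0.315, and stage IV replicate 3 with stage III replicate 2 gave 0.223. The values thus set replicate 1 apart and pair replicates 2 and 3 less clearly. KO libraries were not included in this check. Alternatives were other scalings and filters, DESeq2 1.42.0, limma 3.58.1 voom with quality weights, the replicate block, other sets of libraries and each library left out. Some members of the lists are not reported here by name.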

Additional observations from a re-analysis of the deposited data

Results flagged for a closer look

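For 4 genes the test of the difference itself, WT step minus KO step from stage III to IV, passed the threshold in the fit to all 18 libraries. A fit to the 12 stage III and IV libraries alone called 0 genes. In the 12 fits that left out 1 of these libraries, Thy1 and Car2 each lost their call in 10, Tmem176b in 6 and Ccr2 in 1. Leaving out KO stage III replicates 1 and 3 together leaves 1 library in that arm, so the calls of that fit are not given. Ccr2 had a difference of -1.33 (KO step -0.71, WT step -2.04), since its fall was smaller in KO cells. Tmem176b had 1.81 (KO step -2.28, WT step -0.47), Thy1 1.62 (KO step -4.19, WT step -2.58) and Car2 1.22 (KO step -2.19, WT step -0.97), each with the larger fall in KO cells. Tmem176b was at 10.8, 7.83 and 9.82 CPM in KO stage IV and 50.8, 34.8 and 34.8 CPM in KO stage III, against 5.63, 7.51 and 6.51 CPM in WT stage IV and 9.27, 8.43 and 9.63 CPM in WT stage III. Thy1 was at 2.84, 2.70 and 3.48 CPM in KO stage IV and 54.5, 46.0 and 44.1 CPM in KO stage III, against 11.5, 14.7 and 11.1 CPM in WT stage IV and 81.4, 73.5 and 68.5 CPM in WT stage III.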

How the results depend on the processing

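The count of genes called between WT stages IV and III (1424) was within 1.5 times under other scalings and filters, DESeq2, the 6 libraries alone and replicates 2 and 3 alone. The genes were not all the same. Of the 1424, 1065 were called without a filter, 1129 in replicates 2 and 3 alone and 1267 in the 6 libraries alone. The other settings just named kept at least 1360. The count itself moved further in other fits. It was 2431 with voom and quality weights, 449 in the fit to all 18 libraries (448 of them among the 1424), and ran from 695 to 1754 with 1 library left out. With the replicate block it was 3179, or 3786 with the block in the 6 libraries alone, and every one of the 1424 genes was also called in the first of these. The block ended the call of none of the 113 called genes named here. The difference between the steps, called for 216 genes, was called for 524 without a filter (where the median over all genes moved to 0.23), 441 by DESeq2, 435 with voom, 802 with the block, 74 in all 18 libraries and 73 to 231 with 1 library left out. The genotype difference, called for 4 genes, was called for 2 with upper quartile scaling, 331 without a filter (median -0.34), 54 by DESeq2, 7 with voom, 6 with the block, 0 in the 12 stage III and IV libraries and 0 to 2440 with 1 library left out. The cause was not tested.

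No called gene named in the text changed direction in any of its 20 alternative fits, and 78 of 113 kept their call in all of them. The fit to all 18 libraries ended 28 of these calls, the lack of a filter 7, replicates 2 and 3 alone 4, voom 3 and upper quartile scaling 1. Ifng, which was not called, turned to 0.011 with voom and ran from -0.31 to 0.21 with 1 library left out. Ncr1, also not called, ran from -0.17 to 0.33 in the same fits, as did Cd74 from -0.67 to 0.16 and Lyz2 from -0.72 to 1.37. Each fit that leaves out a stage III or IV library has 2 libraries in that arm by construction. At the depth of these libraries a gene with 0 reads is held below 0.106 to 0.147 CPM, by counting error alone.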
